A study of Mus musculus with 2 samples.

Results

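Thiol redox and antioxidant defence was described in the mouse P5424 T-cell line through 44 genes of glutathione, thioredoxin, peroxiredoxin and NRF2 biology. The members were given by name. They were found on the arrays as the non-control probes whose gene name is one of the 44, and all 44 were present among 19796 named genes. They were read by 65 probes, since 27 of them had 1 probe and 17 had several. The array carries 60-base probes, and each reports the amount of labelled RNA that binds it.

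Animal cells keep their cysteine thiols reduced with a pair of parallel systems. Glutathione, a short peptide with a cysteine thiol, is made at high concentration and serves glutathione peroxidases, transferases and glutaredoxins; thioredoxin carries its own dithiol and serves the peroxiredoxins, which remove hydrogen peroxide. Both systems draw their electrons from NADPH. The transcription factor NRF2 (gene Nfe2l2) raises many of these genes under oxidative or electrophilic stress and is otherwise held low by KEAP1, a cysteine-rich sensor that hands it over for degradation. In T cells, activation and proliferation are known to depend on glutathione synthesis and on the thioredoxin system.

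P5424 is an established line of immature T cells, labelled as a knockout of Rag2, which encodes a subunit of the antigen receptor recombinase, and of the tumour suppressor P53. The study holds 1 group of 2 arrays, replicate 1 and replicate 2, both of untreated cells of that genotype in medium with serum and 2-mercaptoethanol, a small thiol added to lymphocyte cultures that eases cystine uptake. There was no culture without 2-mercaptoethanol, no wild type and no stimulated sample, so no value below compares conditions and none shows an effect of the thiol. The labels call the RNAs separate samples of the line but name no separate cultures, and their spread may therefore be a technical one. A single line gives no spread between animals.

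The scanner software marks spots that are well above background. That mark was set for 42.5% of 55681 probes on replicate 1 and for 41.2% on replicate 2. No spot was saturated. The median signal of the 308 negative control spots was 6.55 and 7.50 intensity units on replicates 1 and 2. The highest reached 15.1 and 101 units. Of these control spots, 1 on replicate 2 was itself marked well above background, and none on replicate 1 was. Across the 22321 probes detected on both arrays, Pearson r was 0.994 and Spearman rho 0.992. This correlation is across probes, which are not independent replicates. All 14 T-lineage markers examined were detected, among them Cd3e, Cd3g, Lck and Thy1. Over all named genes, 51.6% were detected. Of the markers of other cell types, 4 of 8 myeloid markers were detected (Csf1r, Cd14, Cd68 and Elane). So were 1 of 6 erythroid (Klf1), 1 of 5 B-cell (Cd79a) and 1 of 7 fibroblast markers (Pdgfrb). On replicates 1 and 2, Cd68 had 1685 and 1473 units and Pdgfrb had 1573 and 1557 units. The remaining detected ones lay between 44.8 and 115 units on replicate 1 and between 42.5 and 144 units on replicate 2. Among them, Cd14, Klf1 and Cd79a were below the highest negative control spot on replicate 2. Mpo, Slc4a1 and Cd79b were well above background on 1 array. The macrophage lysozyme Lyz2, the globins Hba-a1 and Hbb-b1 and the collagen genes were not well above background on either array. The part of other cells in the signals was not tested.

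Of the 44 genes, 36 were detected (81.8%), meaning that at least 1 probe was well above background on both arrays; the background share over all named genes was 51.6%, or 10221 of 19796. Nqo1 was well above background on 1 array, and 7 genes were so on neither: Gpx3, Gpx7, Gstm5, Mgst1, Srxn1, Sod3 and Mt1. More probes give a gene more chances of detection. Among genes with 1 probe, 21 of 27 members were detected (77.8%), where all named genes gave 44.8%. Among genes with several probes, 15 of 17 members were detected (88.2%), where all named genes gave 66.6%. The members had been picked by name and not at random, so these shares describe the list and no test was made of them. With any positive and significant signal, 37 members were called, where 67.3% of all genes were. With every probe of a gene required, 32 members were called, where 44.7% of all genes were. With signal above the highest negative control spot of each array, 35 were, where 45.8% of all genes were. Replicate 2 alone called 36 members, where 52.5% of all genes were called, and replicate 1 alone called 37, where 53.3% were.

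Detected members' probes had signals between 66.7 and 229075 intensity units on replicate 1 and between 85.1 and 242081 units on replicate 2. The highest signals came from a Glrx2 probe that shares bases with probes of other names and cannot be assigned to Glrx2 alone. The next highest were those of Sod1, at 99827 and 89801 units. The 13 member probes that were well above background on neither array lay between 5.77 and 15.9 units on replicate 1 and between 6.20 and 17.1 units on replicate 2, near the negative controls. From here on, a value in brackets is the log2 signal minus that of its array's 75th percentile, as mean ± SD of both arrays (n = 2), so that 0 is that percentile. It lay at 324 units on replicate 1 and 299 units on replicate 2. Each gene was read by its detected probe of highest mean. The mean value was then above 0 for 35 of the 36 detected members (97.2%), where 75.4% of all detected genes were. The exception was Prdx4. With detected probes of a gene averaged, Hmox1 was below 0 too, at -0.95. Binding differs between probe sequences, so a signal does not rank the amount of one gene's RNA against that of another.

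**Figure D1:**
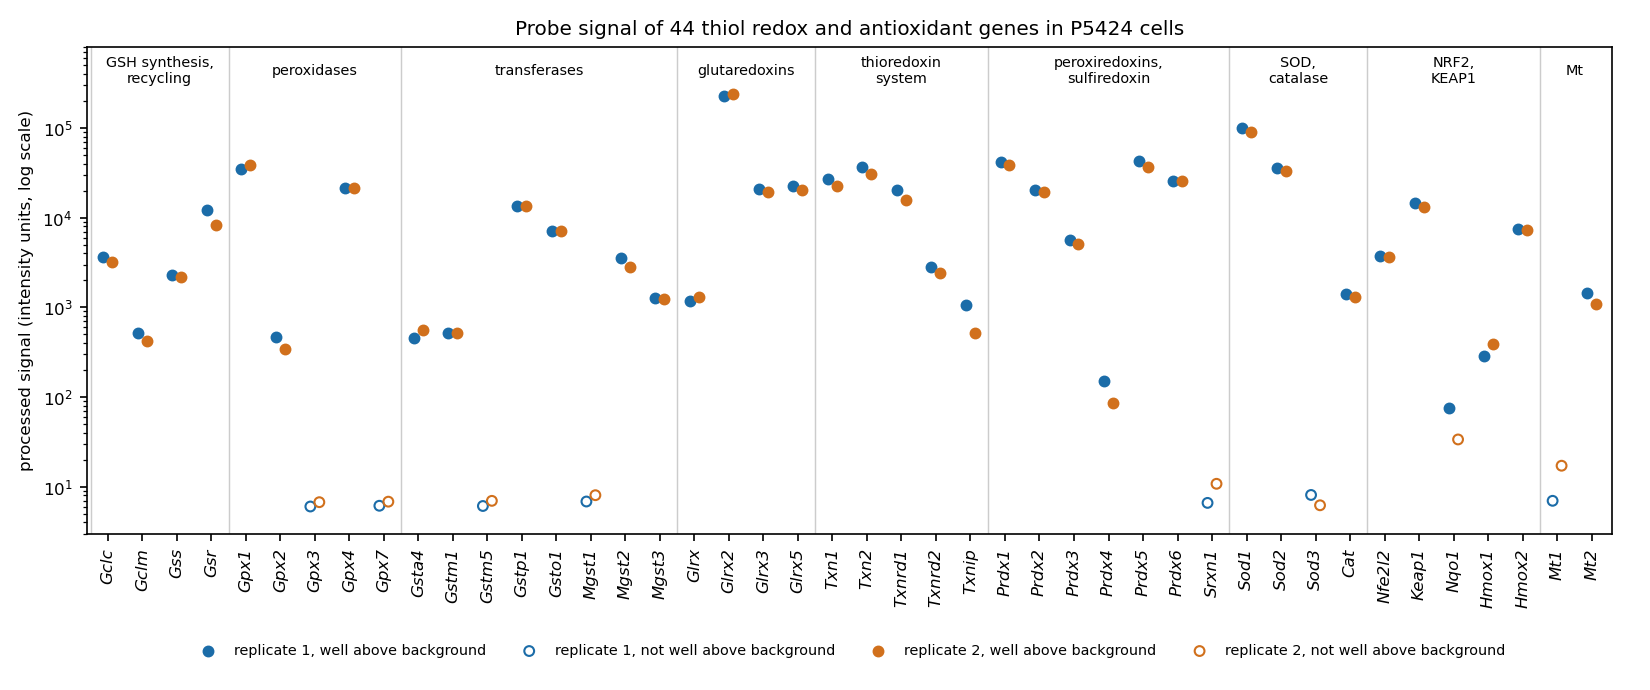
Processed signal (intensity units, log axis) of 1 probe for each of the 44 genes, ordered by role, with replicate 1 in blue and replicate 2 in orange. Filled points are well above background on that array and open points are not. The Glrx2 points, the highest ones, are of a probe that shares bases with probes of other names. The open points of the 7 genes found on neither array lie at 17.1 units or lower, Nqo1 has 1 filled and 1 open point, and 36 genes have both points filled.

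All 4 genes of glutathione synthesis and recycling were detected, where 51.6% of all named genes were. Glutamate-cysteine ligase, the rate-limiting enzyme, is made of the catalytic subunit Gclc and the modifier subunit Gclm. Gclc had signals of 3672 and 3230 units on replicates 1 and 2 (3.47 ± 0.05). Gclm had 522 and 417 units (0.58 ± 0.14). Both subunits were thus read on both arrays, each by 1 probe. Glutathione synthetase, Gss, which adds the last amino acid, had 2286 and 2178 units (2.84 ± 0.03). Glutathione reductase, Gsr, which returns the oxidised form with NADPH, had 12160 and 8356 units (5.02 ± 0.30) at one probe and 3574 and 2880 units (3.37 ± 0.14) at the other. Both Gsr probes were lower on replicate 2 after scaling, by 0.42 and 0.19 on the log2 scale.

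Among 5 glutathione peroxidases, 3 were detected (60%), near the 51.6% of all named genes: Gpx1, Gpx2 and Gpx4. Gpx1, the abundant cytosolic selenoenzyme that reduces hydrogen peroxide, had 34942 and 39066 units (6.89 ± 0.20). Gpx4, which reduces lipid hydroperoxides in membranes and guards cells against ferroptosis, had 21140 and 21659 units (6.10 ± 0.11). Both were far above the negative controls on both arrays. Gpx2, best known from the epithelium of the gut and a known NRF2 target, had 466 and 341 units (0.36 ± 0.24). The secreted plasma enzyme Gpx3 had 6.01 and 6.71 units, and Gpx7, of the endoplasmic reticulum, had 6.13 and 6.80 units, with no array well above background for either.

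Of 8 glutathione transferases, which join glutathione to electrophiles, 6 were detected (75%), where 51.6% of all named genes were. The pi-class enzyme Gstp1 had 13511 and 13344 units (5.43 ± 0.07) at one probe and 6648 and 7744 units (4.53 ± 0.24) at the other. The omega-class enzyme Gsto1, which also reduces dehydroascorbate, had 7034 and 7165 units (4.51 ± 0.10). The membrane-bound enzyme Mgst2 had 3553 and 2813 units (3.34 ± 0.15). Its relative Mgst3 had 1265 and 1232 units (2.00 ± 0.06) at one probe and 739 and 709 units (1.22 ± 0.04) at the other. Gsta4, which conjugates aldehydes from lipid peroxidation, had 449 and 559 units (0.69 ± 0.31). The mu-class gene Gstm5 (6.09 and 6.95 units) and both probes of the microsomal Mgst1 (at most 6.83 units on replicate 1 and 8.03 on replicate 2) stayed at the level of the negative controls. So the pi, omega, alpha and mu classes and the microsomal enzymes each had at least 1 detected member among the 8.

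Gstm1, a mu-class transferase, was read by 2 probes with 1 annotated transcript but different places in mm9, the build of the probe positions. The gene lies on chromosome 3, and so does the probe at transcript base 807. The files place the probe at transcript base 1225 on chromosome 5. The first 30 bases of each are shown because the choice between them sets the value of the gene.
Gstm1 probe on chromosome 3, chr3:107815595-107815654, minus strand: atcgcaacacctatattttcaaagatggcc
Gstm1 probe on chromosome 5, chr5:117082490-117082549, minus strand: tgttcctggtggaggagcctccccaggcct
The chromosome 3 probe had 282 and 380 units (0.07 ± 0.39), and the chromosome 5 probe had 512 and 512 units (0.72 ± 0.08). Both were well above background on both arrays, so Gstm1 counts as detected with either. Mu-class genes are close copies of one another, and the part of other mu-class transcripts in these signals was not tested.

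The 4 glutaredoxins, small oxidoreductases that use glutathione as their electron source, were all detected, where 51.6% of all named genes were. Glrx, the cytosolic enzyme that removes glutathione from protein thiols, had 1182 and 1296 units (1.99 ± 0.18). Glrx5, a mitochondrial protein of iron-sulphur cluster transfer, had 22307 and 20107 units (6.09 ± 0.02). Glrx3 and Glrx2 need a look at their probes.

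Glrx3, a cytosolic iron-sulphur protein with a thioredoxin-like and glutaredoxin domains, was read by one probe on its own chromosome 7 and by one that the files place on chromosome 4. Over 52 aligned bases the pair matched at 51, with the substitution T22C, where positions count from 1 at the 5′ end of the chromosome 7 probe, and the longest run in common was 38 bases. The stretch of 30 bases around the substitution is shown, with the differing base in capitals.
Glrx3 probe on chromosome 7, chr7:144659806-144659865, plus strand: atgctacgttctcTacgaagcagagaaggc
Glrx3 probe on chromosome 4, chr4:91472031-91472090, minus strand: atgctacgttctcCacgaagcagagaaggc
The chromosome 7 probe had 21104 and 19127 units (6.01 ± 0.02) and the chromosome 4 probe had 14912 and 13212 units (5.50 ± 0.04). With 1 mismatch in the aligned bases, RNA of one place can bind the probe of the other, so these may not be separate measurements of 2 loci.

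Glrx2, mainly a mitochondrial glutaredoxin, gave 3 different readings from probes that the files assign to 1 transcript. A stretch of 30 bases of each is shown because the gene's value depends on which one is used; capitals mark bases that lie in runs of at least 25 bases shared with probes of other names.
Glrx2 probe at transcript base 639, chr1:145593845-145593904, plus strand: tgtggattgccttcataaagatgattcaga
Glrx2 probe at transcript base 3361, chr1:145596567-145596626, plus strand: agaaggtaacagggtatgttaattttcaat
Glrx2 probe at transcript base 3502, chr1:145596708-145596767, plus strand: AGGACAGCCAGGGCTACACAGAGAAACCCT
The probe at base 639 had 778 and 536 units (1.05 ± 0.30). The probe at base 3361, of 21.7% GC, had 6.88 and 8.23 units and was well above background on neither array. The probe at base 3502 had 229075 and 242081 units (9.56 ± 0.14). It shared runs of at least 25 bases with 8 probes of other names, and each printed base lay in such a run with 6 to 8 of them. Among these were probes named Elk1 and Med16 (41 shared bases each), Cxcl11 (31 bases) and Kctd14 (26 bases), with signals of 246998, 177344, 137652 and 280227 units on replicate 1. The Elk1, Med16, Cxcl11 and Kctd14 probes had 235257, 163501, 121651 and 279196 units on replicate 2. The other 4 had signals between 1272 and 67828 units on replicate 1 and between 1630 and 43229 units on replicate 2. The part of other RNAs in the reading at base 3502 was not tested, and it cannot be assigned to Glrx2 alone. Without it Glrx2 was still detected, at 1.05 ± 0.30 in place of 9.56 ± 0.14, and its difference between the arrays turned to -0.42 in place of 0.20.

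**Figure D2:**
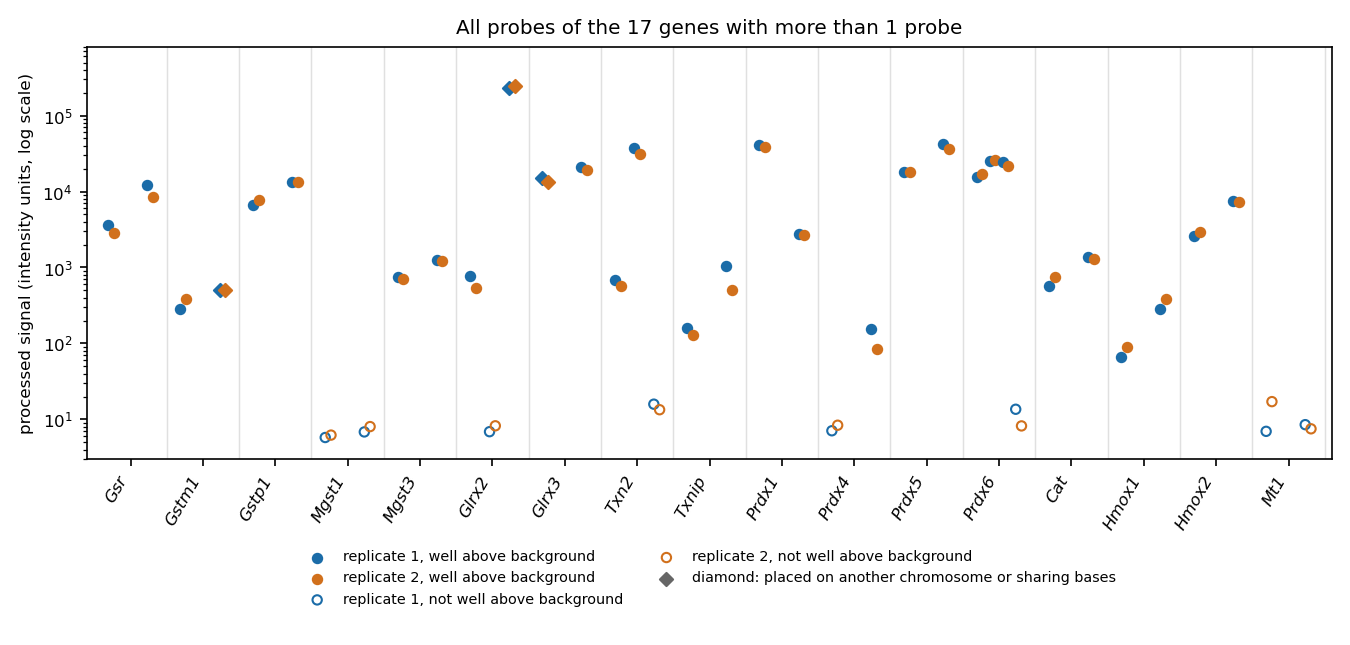
Processed signal (intensity units, log axis) of every probe of the 17 genes that had more than 1, replicate 1 in blue and replicate 2 in orange, filled where well above background. Diamonds mark the probes of Gstm1 and Glrx3 placed on another chromosome and the Glrx2 probe that shares bases with probes of other named genes. Both probes of Mgst1 and of Mt1 are open, while Glrx2, Txn2, Prdx4 and Prdx6 hold filled and open points together.

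All 5 genes of the thioredoxin system were detected, where 51.6% of all named genes were. All 5 were lower on replicate 2 than on replicate 1, as were 5737 of all 10221 detected genes. Cytosolic thioredoxin, Txn1, had 27219 and 22408 units (6.31 ± 0.11). Its reductase Txnrd1, a selenoenzyme that uses NADPH, had 20215 and 15595 units (5.83 ± 0.18). Mitochondrial thioredoxin, Txn2, had 37104 and 30874 units (6.77 ± 0.10), and its reductase Txnrd2 had 2836 and 2416 units (3.07 ± 0.08). After scaling, these 4 genes were lower on replicate 2 by 0.11 to 0.26 on the log2 scale. The 5 genes kept that direction under each of the 10 ways of computing the values, the main one included. Keeping dim probes, or leaving out misplaced or shared ones, did not change their values at all, so this count does not measure robustness. With 1 array on each side nothing separates such a shift from the spread between arrays.

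Txn2 had a further detected probe, taken from the transcript AK160591, with 685 and 569 units, and another probe, from AK090199, with 15.9 and 13.4 units, which was well above background on neither array. Txnip, the thioredoxin-interacting protein that binds reduced thioredoxin and curbs glucose uptake, was the detected member with the widest difference between the arrays, except where probes of a gene were averaged, which put Txnip at -0.56 and Prdx4 at -0.72. Its probe at transcript base 2167 (chr3:96365147-96365206, plus strand) had 1057 and 511 units (1.24 ± 0.66), a 1.91-fold difference. Its probe at base 1345 had 160 and 129 units (-1.12 ± 0.14), a 1.15-fold difference. Both Txnip probes were lower on replicate 2, by unequal amounts.

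All 6 peroxiredoxins were detected, where 51.6% of all named genes were, and sulfiredoxin was not. Prdx1 had 41424 and 38409 units (7.00 ± 0.01) and Prdx2 had 20469 and 19514 units (6.01 ± 0.03); both are cytosolic enzymes that pass electrons from thioredoxin to hydrogen peroxide. A further Prdx1 probe had 2742 and 2674 units (3.12 ± 0.06). The mitochondrial Prdx3 had 5587 and 5042 units (4.09 ± 0.02). Prdx5, of mitochondria and peroxisomes, had 42331 and 36833 units (6.99 ± 0.06) at one probe and 18215 and 18160 units (5.87 ± 0.08) at another. These probes differed between the arrays by no more than 0.11 on the log2 scale.

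Prdx6, which takes its electrons from glutathione and not from thioredoxin, had 4 probes. At transcript bases 726, 1379 and 527 they had 25604, 24319 and 15649 units on replicate 1 and 25909, 22004 and 17011 units on replicate 2. The one at base 1379 shares a run of at least 25 bases with 1 probe of another name. The probe at base 1804 had 13.6 and 8.20 units and was well above background on neither array. The files assign all 4 to 1 transcript, and the probe that was not detected is the one farthest along it. Prdx4, the peroxiredoxin of the secretory pathway, had 153 and 85.1 units (-1.45 ± 0.51) at chrX:151758471-151758530, minus strand. On replicate 2 that signal was below the highest negative control spot, and Prdx4 was the only detected member of which this was true. Its other probe, from an Ensembl transcript, had 7.08 and 8.37 units. Srxn1, which restores peroxiredoxins that were overoxidised, had 6.59 and 10.8 units and was well above background on neither array.

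Of the enzymes that remove superoxide and hydrogen peroxide directly, the cytosolic Sod1 had 99827 and 89801 units (8.25 ± 0.02). The only Sod1 probe shares a run of at least 25 bases with 1 probe of another name, and the part of other RNA in its signal was not tested. The mitochondrial Sod2 had 35428 and 32756 units (6.77 ± 0.00). The peroxisomal catalase, Cat, had 1392 and 1293 units (2.11 ± 0.01) at one probe and 571 and 744 units (1.07 ± 0.35) at another. The extracellular Sod3 had 8.08 and 6.20 units and was not detected. By place in the cell, 7 of 7 members listed as mitochondrial were detected (Glrx2, Glrx5, Txn2, Txnrd2, Prdx3, Prdx5 and Sod2). Of 4 members listed as secreted or of the endoplasmic reticulum, 1 was, Prdx4, while Gpx3, Gpx7 and Sod3 were not. Both shares rest on few genes, and the share over all named genes was 51.6%. The second list is not complete, since it leaves out the microsomal transferases and the haem oxygenases. Of these, Mgst2, Mgst3, Hmox1 and Hmox2 were detected and Mgst1 was not.

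NRF2 itself, Nfe2l2, had 3747 and 3623 units (3.57 ± 0.05), and its sensor Keap1 had 14557 and 13281 units (5.48 ± 0.01). Both RNAs were read with little difference between the arrays. NRF2 is governed mostly through its protein, which was not measured. The inducible haem oxygenase Hmox1, which NRF2 and the repressor BACH1 control, had 288 and 388 units (0.10 ± 0.39) at transcript base 1290 and 66.7 and 89.4 units (-2.01 ± 0.38) at base 324. The constitutive enzyme Hmox2 had 7416 and 7227 units (4.56 ± 0.06) at one probe and 2631 and 2941 units (3.16 ± 0.20) at the other. The quinone reductase Nqo1, a widely used NRF2 target, had 74.7 units on replicate 1, well above background, and 33.6 units on replicate 2, where it was not.

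Of the members, 13 were listed as widely known NRF2 targets, and 11 of these 13 were detected (84.6%). That is near the 36 of all 44 members (81.8%), where 51.6% of all named genes were detected. The 11 were Gclc, Gclm, Gsr, Gpx2, Gsta4, Gstm1, Gstp1, Txn1, Txnrd1, Prdx1 and Hmox1. The exceptions were Nqo1, found on 1 array, and Srxn1, found on neither. Without cells of higher or lower NRF2 activity, these levels do not show whether the factor was active.

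The metallothioneins bind metals through many cysteines and are induced by metals through the factor MTF1. Mt2 had 1449 and 1090 units (2.01 ± 0.21) at chr8:96697371-96697430, plus strand. Its neighbour Mt1 was well above background at neither of its probes, with 6.96 and 17.1 units at one and 8.52 and 7.51 units at the other. So one gene of the pair was detected on both arrays and the other on neither.

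Promoters were read from RefSeq on GRCm38.p6, from 250 bases before to 50 after each annotated start, and 38 of the 44 members matched. The antioxidant response element, through which NRF2 binds with small MAF proteins, was searched as TGACNNNGC on both strands. It occurred in 9 of 38 members (23.7%) and in 14.0% of all 27025 genes with a promoter; counted by promoter, it occurred in 9 of 51 (17.6%) and in 12.4% of all 32851. Of the known NRF2 targets with a promoter, 4 of 9 held it: Gclm, Txnrd1, Prdx1 and Srxn1. Of detected members 6 of 31 held it, and of the others 3 of 7. The matches are shown with 10 bases on each side and the motif in capitals, since 3 of them belong to genes that were not detected. The strand is that of the printed bases.
Gclm, chr3:122245413-122245441, minus strand: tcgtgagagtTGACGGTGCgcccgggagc
Gstm5, chr3:107895802-107895830, plus strand: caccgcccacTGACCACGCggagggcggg
Mgst1, chr6:138140461-138140489, minus strand: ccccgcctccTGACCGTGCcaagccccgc
Txnrd1, chr10:82859104-82859132, minus strand: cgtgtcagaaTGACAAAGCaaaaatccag
Prdx1, chr4:116685456-116685484, minus strand: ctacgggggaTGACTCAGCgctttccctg
Srxn1, chr2:152105542-152105570, minus strand: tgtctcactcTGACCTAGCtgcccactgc
Sod1, chr16:90220696-90220724, minus strand: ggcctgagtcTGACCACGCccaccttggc
Nfe2l2, chr2:75704885-75704913, minus strand: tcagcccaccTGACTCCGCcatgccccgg
Mt2, chr8:94172529-94172557, plus strand: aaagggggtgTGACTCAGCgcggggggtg
The Prdx1 and Mt2 windows also hold TGACTCA, the core sequence bound by AP-1. The Gclm match overlaps a match to the metal response motif described next. A match is only a description of the letters, and NRF2 binding was not measured.

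The metal response element, bound by MTF1, was searched as TGCACNC or TGCGCNC on both strands. It occurred in 12 of 38 members (31.6%) and in 28.2% of all genes with a promoter, so the share in members was near that of all genes. Most members that held it had 1 match in a promoter. Mt2 had 4 matches, Mt1 had 3 and Gclm had 3. Both metallothionein promoters are shown, with matches on either strand in capitals, because the genes are neighbours with several matches each and only Mt2 was detected.
Mt2 promoter, chr8:94172368-94172667, plus strand: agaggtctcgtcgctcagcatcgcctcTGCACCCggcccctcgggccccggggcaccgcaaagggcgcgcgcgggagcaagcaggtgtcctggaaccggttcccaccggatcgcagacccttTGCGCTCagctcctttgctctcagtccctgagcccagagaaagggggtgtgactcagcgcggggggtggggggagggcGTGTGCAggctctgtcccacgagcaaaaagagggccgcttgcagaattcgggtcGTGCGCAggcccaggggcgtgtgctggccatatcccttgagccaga
Mt1 promoter, chr8:94178839-94179138, plus strand: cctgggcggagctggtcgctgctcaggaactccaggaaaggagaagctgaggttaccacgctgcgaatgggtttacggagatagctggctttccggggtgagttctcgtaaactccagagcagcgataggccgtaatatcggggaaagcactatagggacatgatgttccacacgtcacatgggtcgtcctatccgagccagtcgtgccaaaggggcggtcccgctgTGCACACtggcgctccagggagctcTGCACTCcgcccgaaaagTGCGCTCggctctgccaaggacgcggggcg
Both printed windows thus hold several matches to the metal response motif. Within these windows, only that of Mt2 holds a match to the antioxidant response motif. Bases outside the windows were not searched, so this does not show that Mt1 lacks the motif.

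The spread between the arrays was small for most members. The median absolute difference was 0.13 on the log2 scale over the 36 detected members and 0.16 over all 10221 detected genes. Of the 36, 18 were higher on each array, and differences (replicate 2 minus replicate 1) lay between -0.93 and 0.55. None of the members was over 2-fold apart, where 82 of all detected genes were (0.802%). Scaled to the array median, which put the median difference of all genes at -0.26, Txnip was over 2-fold apart, where 1.18% of all genes were. With dim probes kept, Nqo1 and Mt1 were, where 5.64% of all genes were. A difference over 0.5 was seen for 3 members (8.33%) and for 7.71% of all detected genes. The 3 were Txnip at -0.93, Prdx4 at -0.72 and Hmox1 at 0.55. Gstm1 counts here with 0.12 from its chromosome 5 probe, while its chromosome 3 probe differed by 0.55. With 1 array for each replicate there is no test of these differences.

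**Figure D3:**
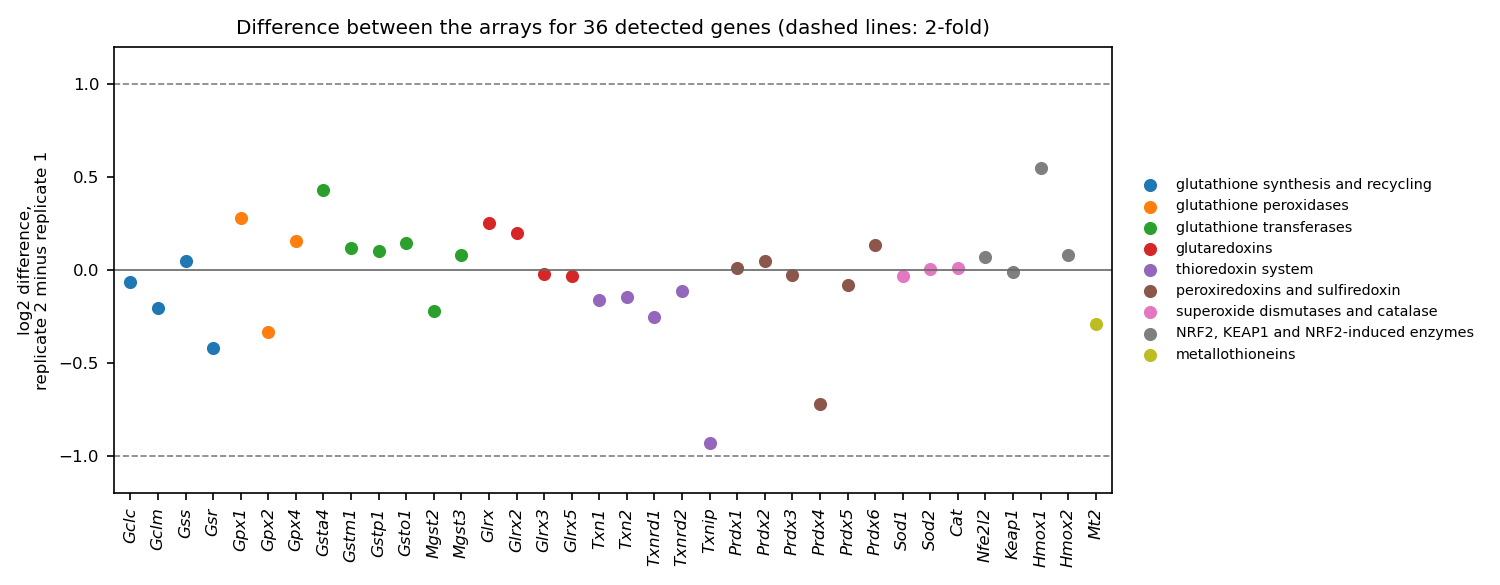
Log2 difference, replicate 2 minus replicate 1, of the 36 detected genes, coloured by role, with dashed lines at 2-fold. All points lie within the lines, Txnip at -0.93 is lowest, Hmox1 at 0.55 is highest, and the 5 genes of the thioredoxin system all lie below 0.

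By role, the median difference was -0.14 for glutathione synthesis and recycling, 0.15 for the detected peroxidases and 0.11 for the detected transferases. It was 0.09 for the glutaredoxins with the Glrx2 probe at base 3502 and -0.03 without misplaced or shared probes. It was -0.16 for the thioredoxin system and -0.01 for the peroxiredoxins. Scaled to the array median, the peroxidases, transferases and glutaredoxins turned to -0.07, -0.12 and -0.14, and the glutaredoxin and peroxiredoxin medians, both near 0, changed sign under other settings too. Sod1, Sod2 and Cat differed by at most 0.03 in size. Hmox1 differed by 0.55 at one probe and 0.54 at the other, so both its probes were higher on replicate 2 by nearly the same amount. Catalase differed by 0.01 at one probe and 0.50 at the other.

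Gsta4 and Prdx3 were printed as 10 spots on each array, which shows how far a signal varied within an array. The Gsta4 spots lay between 408 and 490 units (median 448) on replicate 1 and between 513 and 601 units (median 558) on replicate 2. These ranges did not overlap, and after scaling the difference was 0.43 on the log2 scale, 13.6 times its standard error over spots. The Prdx3 spots lay between 5264 and 5846 units (median 5617) on replicate 1 and between 4757 and 5217 units (median 5058) on replicate 2. These unscaled ranges did not overlap either. The Prdx3 difference was -0.15 before scaling and -0.03 after it, the latter 1.55 times its standard error over spots in size. Spots of one array share 1 labelled RNA, so they measure the spread within an array and not the error between arrays or cultures. Both ratios to the standard error hold for 1 scaling only. Scaled to the array median, the differences were 0.20 for Gsta4 and -0.26 for Prdx3.

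Probes of the same gene did not always behave alike. Of the 15 detected members with several probes, 11 had every probe detected and 4 had some (26.7%), where 33.5% of all such detected genes had some. The 4 were Glrx2, Txn2, Prdx4 and Prdx6. Of the 65 probes, 8 covered more of the genome than their 60 bases, between 152 and 3343 bases, as a probe that spans a splice junction does. These were probes of Gclm, Gss, Gpx4, Gsta4, Gstp1, Mgst3, Cat and Keap1. Whether the other probes lie in coding sequence or in untranslated sequence was not analysed here.

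Other genes of the pathway were read from 8 lists of 89 genes, of which 58 were detected (65.2%) and 31 were found on neither array. The share over all named genes was 51.6%, and against it the counts of single lists, of 6 to 18 genes each, are descriptions only. For NRF2's partners, competitors and degradation, 7 of 11 were detected. The small MAF genes Mafk (1195 and 1355 units) and Mafg (3529 and 2654 units) and the competing repressor Bach1 (1362 and 1173 units) were among them, and Maff, Bach2 and Nfe2l3 were not. For NADPH supply, 7 of 8 were detected. The pentose phosphate enzymes G6pdx (7461 and 7485 units) and Pgd (4383 and 4720 units) and the mitochondrial malic enzyme Me2 (2285 and 1905 units) were, and the cytosolic malic enzyme Me1 was not.

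For cysteine supply and glutathione turnover, 7 of 11 were detected. The cystine transporter pair Slc7a11 (122 and 182 units) and Slc3a2 (16406 and 17724 units) and the glutathione-degrading Chac1 (583 and 518 units) were among them. Cth and Cbs, the enzymes that make cysteine from methionine, and the gamma-glutamyl transferase Ggt1 were not. All 6 genes of selenoprotein synthesis, on which Gpx1, Gpx4 and the thioredoxin reductases depend, were detected. Sephs1 had 1329 and 1289 units, Secisbp2 had 2161 and 2113 units, and the selenophosphate synthetase Sephs2 had 223 and 476 units, a log2 difference of 1.21.

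Among 18 other glutathione enzymes, 8 were detected (44.4%). Gsta3 had 40.4 and 51.4 units, Gstm2 35.4 and 66.4 units and Gstm3 51.7 and 68.4 units, on replicate 2 all lower than its highest negative control. Gpx5, Gpx6 and Gpx8 were not detected. Of 16 further thioredoxin-fold and repair genes, 14 were detected, among them Txnrd3 (622 and 630 units), Txnl1 (495 and 376 units) and Txndc17 (21942 and 21866 units), and the methionine sulphoxide reductases Msrb2 and Msrb3 were not.

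Of 8 alpha-arrestin and metal response genes, 6 were detected. Arrdc1 (5076 and 4225 units), Arrdc2 (1428 and 1186 units) and Arrdc3 (82.7 and 68.5 units), of the family that holds Txnip, were all lower on replicate 2 after scaling, by 0.15 each. So were 5737 of all 10221 detected genes, whose median absolute difference was 0.16. On replicate 2, Arrdc3 was below the highest negative control spot. Arrdc4 and Mt4 were not detected. Of 11 genes of oxidant-producing oxidases, 3 were detected: the membrane subunit Cyba (43622.5 and 46018 units), the cytosolic subunit Ncf4 (7510 and 7473 units) and the GTPase Rac2 (28363 and 25103 units). The catalytic subunit of the phagocyte oxidase, Cybb, was not, and neither was Ncf1.

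**Figure D4:**
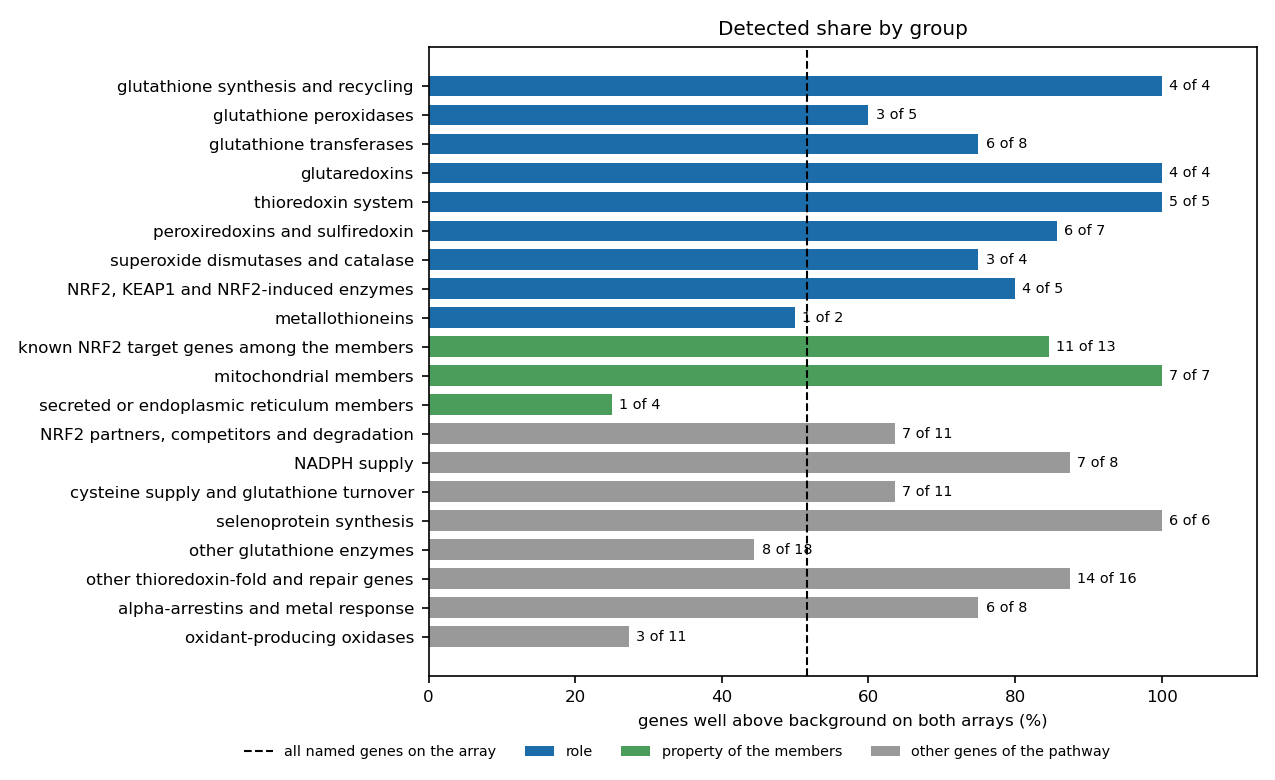
Share of genes well above background on both arrays, in percent, by role (blue), by known property of the members (green) and for the lists of other pathway genes (grey), with the counts beside the bars. The dashed line is the 51.6% of all named genes. Below it lie the members listed as secreted or of the endoplasmic reticulum (1 of 4) and the oxidases (3 of 11). The other glutathione enzymes (8 of 18) and the metallothioneins (1 of 2) also lie below it.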

How the data were processed

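RNA of P5424 cells was measured on 2 one-colour arrays of 62976 spots, of which 59305 are not controls. The intensity values are those the authors obtained with Agilent Feature Extraction 10.5.1.1, per the submitters' processing notes; per the file headers, a fitted background was subtracted within each array and no scaling between arrays was made. The authors also deposited log2 values of the same spots. These rose with the scanner values (slope 0.997 and 1.01), both columns had a median of 5.18 and a lowest value of 5.13, and any offset behind them stays unknown.

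Outlier spots (182 and 186) were left out. Log2 values of the processed signal were averaged over a probe's spots, and the 75th percentile of each array, taken over every probe that is not a control, was set to 0. A probe with several spots was called detected when at least 50% of them were marked well above background on each array. Where a gene has several detected probes, the one of highest mean gives its value. Background counts cover the gene names that are symbols in the RefSeq table of GRCm38.p6. Probe positions are on mm9. Analysis used Python 3.11.15, numpy 2.4.6, pandas 2.3.3, matplotlib 3.10.9, R 4.3.3 and limma 3.58.1 (normexp, offset 50). The calculation was tested on simulated data.

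All 44 members are named; of each further list, the first 3 detected and first 3 not detected genes in its order, with every gene of a class of 3 or fewer. Some genes under this rule are kept in the counts but not reported here. The members, roles and lists were chosen with earlier results of these data known. With 1 group there was no test between groups. Alternatives covered the detection mark, the arrays and probes required, outlier spots, naming, scaling, background correction, quantile normalization and each replicate left out; leaving out misplaced or shared probes was chosen after seeing the data. The number of arrays limits the precision.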

Additional observations from a re-analysis of the deposited data

How the results depend on the processing

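No paired analysis was possible because the study has 1 group and no second group shares its replicate numbers. Counts of detected genes and the spread between the arrays were recomputed under each alternative; 147 recomputed values stayed within the limits set for a change (1.5 times for a count) and 6 did not. Requiring every probe of a gene left 0 of the members listed as secreted or of the endoplasmic reticulum and 3 other glutathione enzymes. It left 32 members in all, without Glrx2, Txn2, Prdx4 and Prdx6. With any positive and significant signal, 5 oxidases were detected, and 37 members where all genes gave 67.3%. Scaling to the array median set the median difference of all genes at -0.26, raised the median absolute difference of members to 0.25 and put 1 member, Txnip at -1.16, over 2-fold; 4 members were then higher on replicate 2 and 32 on replicate 1. Without a filter on dim probes, 2 members, Nqo1 and Mt1, were over 2-fold apart. Members detected numbered 36 without replicate 1 and 37 without replicate 2, which adds Nqo1. Above the highest negative control spot there were 35, without Prdx4, where all genes gave 45.8%. With probes left out that are misplaced or share a run with another named gene (chosen after seeing the data), 36 were detected. The only Sod1 probe was kept there, since the probe it shares a run with carries no named gene. Averaging probes set Txnip at -0.56. Of the values and differences of single members, 342 moved by less than the spread between the arrays and 90 by more. The spread was that of each gene itself, so a gene with nearly equal arrays counted as moved after a small shift. Some settings could not move a gene, as averaging where 1 probe was detected. The tally therefore does not measure stability, and the cause of the moves was not tested.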
